A study of Mus musculus with 6 samples.

Results

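The genes described here are 38 genes of the monoamine systems: the enzymes that make dopamine, noradrenaline and serotonin, the transporters that load and recover them, the enzymes that break them down and the receptors that respond to them. They were chosen by gene name, as the entries of the adult brain count table that carry one of 38 symbols. They are 38 of 53801 genes in the table, and all 38 had enough reads to be tested, among 23975 genes tested. RNA was measured by stranded poly(A) RNA-seq in one brain hemisphere of 3 Bahd1-KO mice (Bahd1-/-) and 3 Bahd1-WT mice (Bahd1+/+), all of strain C57BL/6 and about 70 weeks old. The knockout is constitutive, so every cell of the animal lacked the gene from conception, and both groups came from matings of heterozygotes. The paper describes its mice as males and states that many knockouts die around birth, so the adults compared are survivors. Bahd1 encodes a chromatin protein that works with histone deacetylases in gene silencing. The comparison asked which transcripts differ in the adult brain without it.

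Monoamine neurons are few and sit in compact nuclei of the brainstem and midbrain: dopamine neurons in the substantia nigra and ventral tegmental area, noradrenaline neurons in the locus coeruleus and serotonin neurons in the raphe. Their axons reach most of the forebrain, so the enzymes and transporters are read from a small number of cell bodies, whereas the receptors are read from the many cells that receive the signal. Dopamine is also made by local neurons of the olfactory bulb. In RNA from a whole hemisphere, fewer cells of a type and less RNA per cell cannot be told apart.

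The libraries held 42297150 to 93557948 counts each. For the deleted gene, Bahd1, 1383, 844 and 1099 reads were counted in the wild-type animals and 0, 14 and 1 in the knockouts, a log2 fold change of -7.67 (SE 0.64, edgeR quasi-likelihood test, Benjamini-Hochberg adjusted p = 0.0135). Levels are given as CPM, the counts of a gene relative to the total of its library, scaled by the trimmed mean of M-values (TMM), and a fold change is always Bahd1-KO over Bahd1-WT. Over all genes the fold change moved with the GC content of the transcript: among the genes above 1 on the log2 CPM scale, the 1325 genes with the lowest GC content (median 39.8%) had a median of -0.56 on the log2 scale and the 1325 with the highest (median 59.7%) one of 1.44. Each member is therefore given in 2 forms, from the edgeR fit and from the same fit with a per-library offset for GC content and transcript length. Whether base composition produced the differences was not tested, and a real difference between GC-rich and GC-poor genes would be removed by the offset too. Blood markers (4 genes) summed to 82.6 CPM in Bahd1-KO replicate 2 against 10.2 to 28.1 CPM in the other samples. Of 10 choroid plexus markers, the most abundant carried most of their sum, which was 336 to 430 CPM in Bahd1-WT and 501 to 1118 CPM in Bahd1-KO, whereas the other 9 summed to 121 to 141 CPM in Bahd1-WT and 99.1 to 105 CPM in Bahd1-KO. Markers of lung, a tissue outside the brain, summed to 114 CPM over 6 genes in Bahd1-WT replicate 1 and 27.1 CPM in replicate 2, with 0.552 to 2.43 CPM in the other samples. The part of these tissues in the results was not tested.

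The members spanned much of the range of base composition, which is visible from the first bases of their coding sequences. The 4 stretches below are the first 90 coding bases in GENCODE M21 transcripts of GRCm38, with G and C in capitals, and are shown as examples of this range. They come from the serotonin receptor gene Htr1f (chr16:64924729-65105854, minus strand, 41.1% G or C in the stretch), the monoamine oxidase gene Maoa (chrX:16619698-16687818, plus strand, 54.4%), and the adrenergic receptor genes Adra1d (chr2:131545850-131562283, minus strand, 68.9%) and Adra2c (chr5:35278319-35281763, plus strand, 81.1%).
Htr1f: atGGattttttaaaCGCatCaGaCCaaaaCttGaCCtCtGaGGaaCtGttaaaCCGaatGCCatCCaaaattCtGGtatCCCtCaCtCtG
Maoa: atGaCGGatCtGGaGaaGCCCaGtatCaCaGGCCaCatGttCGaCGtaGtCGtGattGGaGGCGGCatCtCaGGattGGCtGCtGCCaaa
Adra1d: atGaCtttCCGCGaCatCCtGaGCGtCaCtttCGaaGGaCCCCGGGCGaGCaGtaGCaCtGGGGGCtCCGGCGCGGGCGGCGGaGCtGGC
Adra2c: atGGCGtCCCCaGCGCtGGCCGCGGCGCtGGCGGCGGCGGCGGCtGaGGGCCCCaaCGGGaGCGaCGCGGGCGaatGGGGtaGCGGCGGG
Over whole transcripts the GC content was 39.4% for Htr1f, 40.4% for Maoa, 65.4% for Adra1d and 65.5% for Adra2c, so a stretch need not have the composition of its transcript. The GC contents used below are those of whole transcripts.

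No member passed an adjusted p of 0.05 in the edgeR quasi-likelihood test, in which 2 of all 23975 genes did (0.00834%). At an unadjusted p under 0.05 there were 8 members higher in Bahd1-KO and 2 lower, that is Th, Dbh, Slc6a4, Drd4, Htr6, Adra1b, Adra1d and Adra2c above and Drd1 and Htr2b below. Over all genes, 31.8% passed in either direction, 19.9% higher (4760 genes) and the rest lower (2867 genes), so the members' 10 of 38 did not exceed the background. At an adjusted p under 0.1 there were 6 higher (14.7% of all genes) and 2 lower (4.77%), again near the background. In 9 members every Bahd1-KO sample lay above every Bahd1-WT sample (20.6% of all genes) and in 3 below (19.3%). The median log2 fold change was 0.20 over the members and -0.06 over all genes tested, and the members ranged from -1.74 for Htr2b to 2.42 for Adra1d. With DESeq2 and its normal prior on fold changes, 6 members were higher at an adjusted p under 0.05 (14.3% of all genes) and 0 were lower (2.89%). Those 6 were Th, Dbh, Slc6a4, Htr6, Adra1b and Adra1d.

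**Figure D1:**
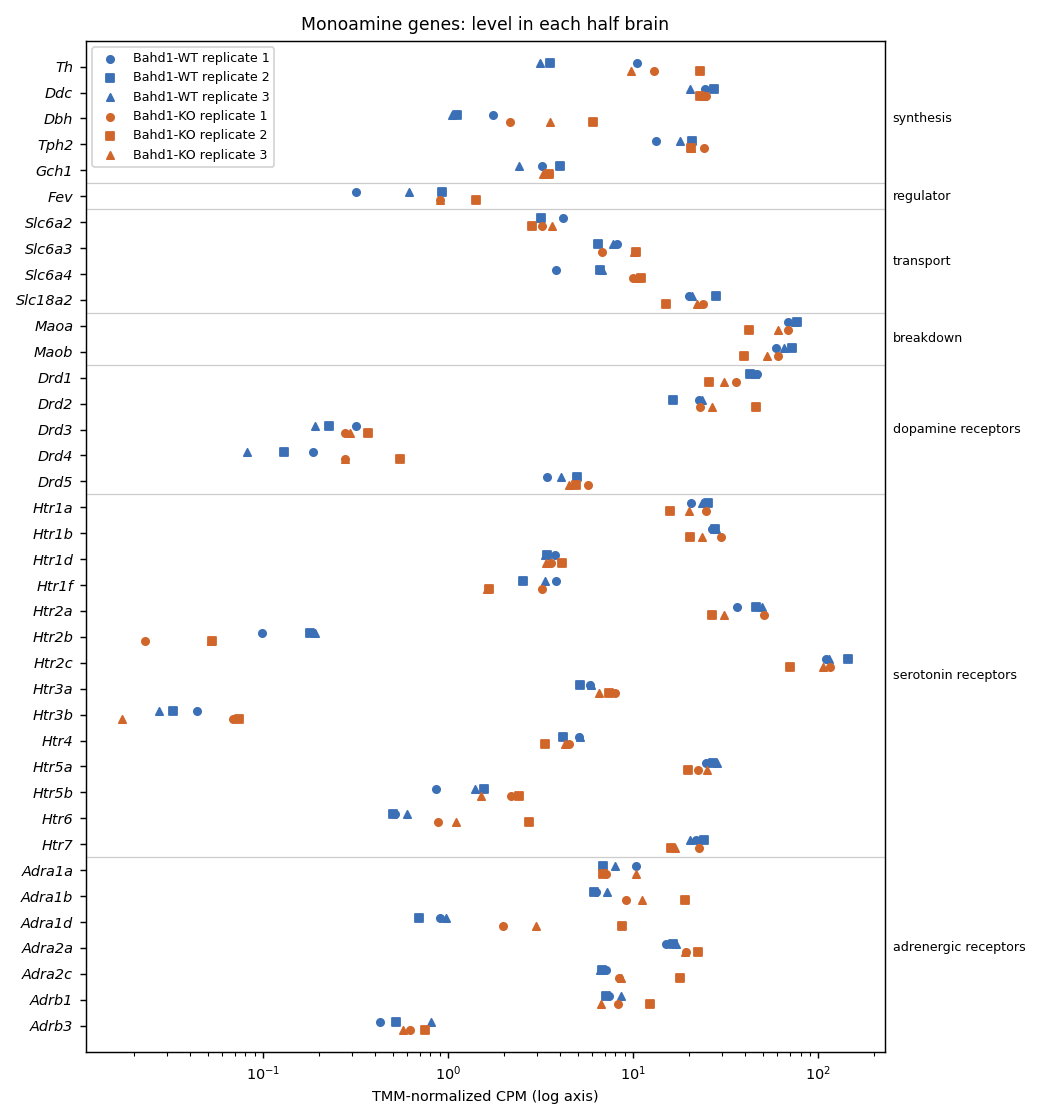
TMM-normalized CPM (log axis) of each of the 38 members, grouped by role, with 1 point per hemisphere; blue points are the 3 Bahd1-WT and orange points the 3 Bahd1-KO samples, and the marker gives the replicate. Levels run from under 0.1 CPM (Htr3b) to over 100 CPM (Htr2c), and in genes such as Slc6a4 and Adra1d all 3 Bahd1-KO points lie above all 3 Bahd1-WT points.

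The first step of catecholamine synthesis, from tyrosine to L-DOPA, is carried out by tyrosine hydroxylase, the product of Th (chr7:142892752-142931128, minus strand). Th was measured at 10.5, 3.55 and 3.11 CPM in Bahd1-WT replicates 1 to 3 and at 13.0, 22.9 and 9.67 CPM in Bahd1-KO. Bahd1-WT replicate 1 stood apart from the other Bahd1-WT samples and lay above Bahd1-KO replicate 3, so the groups overlapped. The log2 fold change was 1.41 (SE 0.50, edgeR unadjusted p = 0.0214, adjusted p = 0.104), and 0.82 (SE 0.38, unadjusted p = 0.0576) with the offset. The olfactory bulb, where Th is also made, was represented unevenly: 5 of its markers without Th (Eomes, Tbx21, Doc2g, Cdhr1 and Shisa3) summed to 89.3, 22.3 and 25.4 CPM in Bahd1-WT and 93.6, 43.4 and 19.6 CPM in Bahd1-KO. The Bahd1-WT sample with the most Th was the one with the most bulb marker RNA, whereas Bahd1-KO replicate 3 had the least bulb marker RNA of all 6 samples and more Th than Bahd1-WT replicates 2 and 3. The part of the bulb in the Th difference was not tested. Without Bahd1-WT replicate 1 the log2 fold change of Th was 2.19, and over the removal of each sample in turn it ranged from 0.99 to 2.19.

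Dopamine is made from L-DOPA by the decarboxylase encoded by Ddc, which also makes serotonin, and Ddc showed 24.4, 27.2 and 20.2 CPM in Bahd1-WT and 24.6, 22.8 and 23.7 CPM in Bahd1-KO. Ddc had a log2 fold change of -0.01 (SE 0.18), and the 3 Bahd1-KO values lay inside the Bahd1-WT range. Gch1 encodes the first enzyme of tetrahydrobiopterin synthesis, the cofactor that both Th and Tph2 need, and its mean was 3.21 ± 0.802 CPM in Bahd1-WT and 3.42 ± 0.146 CPM in Bahd1-KO (SD, n = 3 each). For both genes the Bahd1-KO samples lay within the Bahd1-WT range.

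Noradrenaline is made from dopamine by the product of Dbh (chr2:27165233-27183200, plus strand). Dbh was at 1.75, 1.12 and 1.05 CPM in Bahd1-WT and 2.16, 6.03 and 3.54 CPM in Bahd1-KO. All 3 Bahd1-KO samples lay above all 3 Bahd1-WT samples, with Bahd1-KO replicate 2 highest. The log2 fold change was 1.58 (SE 0.39, edgeR adjusted p = 0.0634), a fold of 3.00, and it was 0.68 (SE 0.22, unadjusted p = 0.0129, adjusted p = 0.134) with the offset. In contrast, Slc6a2, which encodes the noradrenaline transporter of the same neurons, had 4.17, 3.17 and 3.11 CPM in Bahd1-WT and 3.20, 2.85 and 3.61 CPM in Bahd1-KO, with a log2 fold change of -0.12 (SE 0.23).

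The serotonin neurons were read from Tph2, the enzyme that hydroxylates tryptophan in the brain, Slc6a4, the serotonin transporter that recovers serotonin and is blocked by selective reuptake inhibitors, and Fev, a transcription factor gene of these neurons. Slc6a4 (chr11:76998603-77032340, plus strand) was at 3.81, 6.59 and 6.74 CPM in Bahd1-WT and 9.93, 11.0 and 10.5 CPM in Bahd1-KO. The 3 Bahd1-KO samples were close together and all above Bahd1-WT, of which replicate 1 was lowest. For Slc6a4 this was a log2 fold change of 0.87 (SE 0.25, edgeR adjusted p = 0.0699), that is 1.83 times the Bahd1-WT level, and of 0.64 (SE 0.22, unadjusted p = 0.0146, adjusted p = 0.141) with the offset.

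Tph2 (chr10:115078641-115185022, minus strand) was at 13.3, 20.6 and 17.8 CPM in Bahd1-WT and 24.2, 20.6 and 20.5 CPM in Bahd1-KO, so that Bahd1-WT replicate 2 reached the Bahd1-KO range. Its log2 fold change was 0.34 (SE 0.21, unadjusted p = 0.141) in the edgeR fit and 0.55 (SE 0.14, unadjusted p = 0.00307, adjusted p = 0.0872) with the offset. Tph2 and Slc6a4 were thus both above 0 in both fits, with neither past an adjusted p of 0.05. Fev was at 0.317, 0.923 and 0.614 CPM in Bahd1-WT and 0.896, 1.41 and 0.898 CPM in Bahd1-KO. Its log2 fold change was 0.81 (SE 0.40) in the edgeR fit and -0.89 (SE 0.50) with the offset, so its direction was not the same in both. Markers of raphe and brainstem (9 genes) summed to 51.3 to 86.0 CPM in Bahd1-WT and 66.0 to 112 CPM in Bahd1-KO, most of it from Slc6a5, the transporter of glycinergic neurons. The other 8 summed to 16.03, 21.22 and 17.39 CPM in Bahd1-WT and 19.97, 25.98 and 24.82 CPM in Bahd1-KO, with only Bahd1-WT replicate 2 in the Bahd1-KO range, and their part in the Slc6a4 and Tph2 values was not tested.

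**Figure D2:**
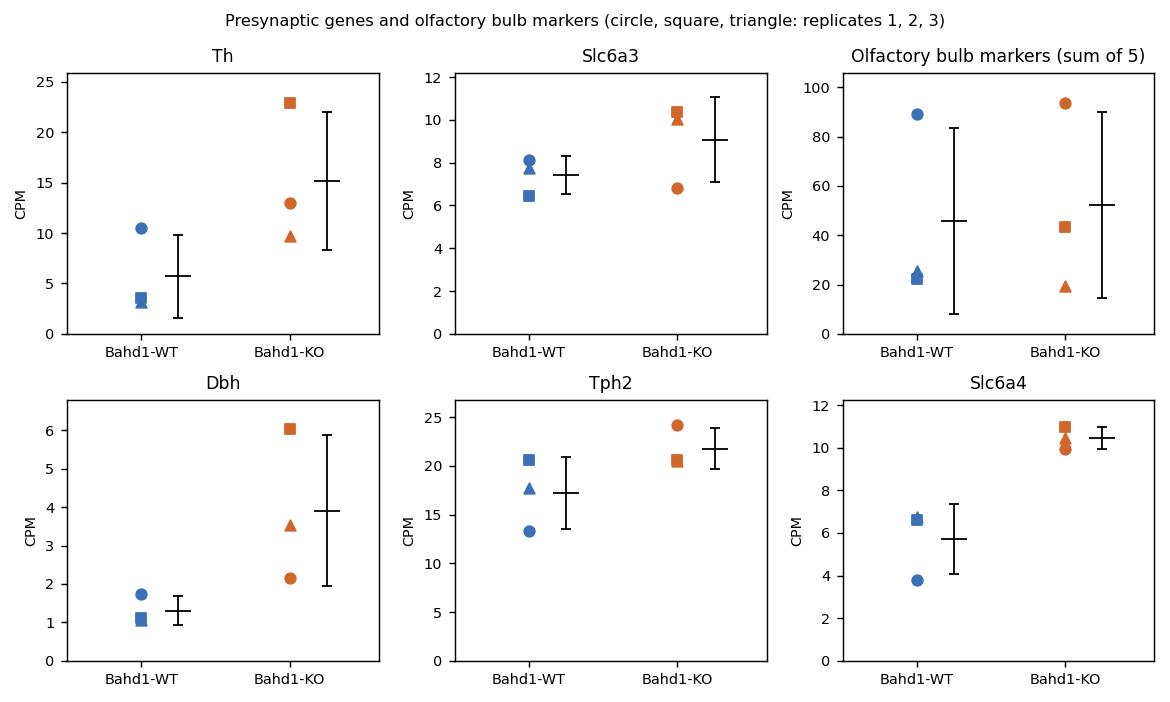
CPM of Th, Slc6a3, Dbh, Tph2 and Slc6a4 and the summed CPM of 5 olfactory bulb markers in each hemisphere, with 1 symbol per sample (circle, square and triangle for replicates 1, 2 and 3; blue Bahd1-WT, orange Bahd1-KO) and the mean and SD of each group (n = 3) beside them. Slc6a4 lies at 3.81 to 6.74 CPM in Bahd1-WT and 9.93 to 11.0 CPM in Bahd1-KO, and Th and the bulb markers share their highest Bahd1-WT sample.

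For the other transporters the groups overlapped. Slc6a3, the dopamine transporter of midbrain neurons, was at 8.14, 6.45 and 7.73 CPM in Bahd1-WT and 6.80, 10.4 and 10.1 CPM in Bahd1-KO, a log2 fold change of 0.29 (SE 0.23). Slc18a2, the vesicular transporter that loads every monoamine into vesicles, averaged 22.8 ± 4.29 CPM in Bahd1-WT and 20.3 ± 4.73 CPM in Bahd1-KO (SD, n = 3 each), a log2 fold change of -0.17 (SE 0.23). Markers of midbrain dopamine neurons (8 genes) summed to 346 to 388 CPM in Bahd1-WT and 322 to 393 CPM in Bahd1-KO, most of it from Aldh1a1 and Calb2, and the other 6 to 33.6 to 45.8 CPM and 37.3 to 45.1 CPM. With each of the 8 weighted equally, as log2(CPM + 0.05) relative to its mean over the samples, their mean was -0.14, -0.27 and -0.21 in Bahd1-WT and 0.02, 0.53 and 0.07 in Bahd1-KO, without overlap. Such means also did not overlap for markers of thalamus (-0.05, -0.22 and -0.21 against 0.03, 0.26 and 0.20), microglia, and endothelial and mural cells, among others. Of the 8, Pitx3 had 1, 0 and 0 counts in Bahd1-WT and 0, 24 and 1 in Bahd1-KO. Without the offset, 5 of the 8 had a log2 fold change above 0 and 3 below (median 0.45). With it, 3 were above and 5 below (median -0.06). The part of these 8 markers in the Th and Slc6a3 values was not tested. The sample with the highest Th, Bahd1-KO replicate 2, had the highest Slc6a3, the lowest Slc18a2 and the highest of the midbrain marker means.

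Monoamines are degraded by the mitochondrial oxidases encoded by Maoa, which prefers serotonin and noradrenaline, and Maob, which is abundant in astrocytes and serotonin neurons. Per kilobase of exon, these were the most abundant members in Bahd1-WT, Maob at 23.4 and Maoa at 17.6 CPM per kb. Maoa was at 68.7, 76.3 and 75.0 CPM in Bahd1-WT and 68.2, 42.0 and 60.7 CPM in Bahd1-KO, and Maob at 58.8, 71.7 and 65.1 CPM against 60.5, 39.6 and 52.7 CPM. Both were lowest in Bahd1-KO replicate 2. The Maoa groups just failed to overlap, between 68.2 and 68.7 CPM, and the Maob groups overlapped. The log2 fold changes were -0.37 (SE 0.20) and -0.36 (SE 0.19) with edgeR adjusted p of 0.227 and 0.224, and with the offset they were 0.17 (SE 0.09) and -0.09 (SE 0.10).

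Of the dopamine receptors, Drd1 and Drd2 mark the projection neurons of the direct and the indirect striatal pathway, and Drd1 couples to stimulation of adenylyl cyclase whereas Drd2 couples to its inhibition. Drd1 (chr13:54051183-54055705, minus strand) was at 46.5, 42.7 and 45.7 CPM in Bahd1-WT and 35.9, 25.7 and 30.9 CPM in Bahd1-KO. All 3 Bahd1-KO samples were below all 3 Bahd1-WT samples. Drd1 had a log2 fold change of -0.54 (SE 0.17, edgeR adjusted p = 0.0840), and -0.30 (SE 0.10, unadjusted p = 0.0113, adjusted p = 0.126) with the offset. Drd2 was at 22.7, 16.3 and 23.5 CPM in Bahd1-WT and 22.8, 45.9 and 26.7 CPM in Bahd1-KO, where Bahd1-KO replicate 2 alone was far above the rest. Its log2 fold change was 0.61 (SE 0.28, unadjusted p = 0.0611), 0.25 without that sample and -0.13 (SE 0.12) with the offset. Striatal projection neuron markers (12 genes) summed to 771 to 963 CPM in Bahd1-WT and 856 to 1197 CPM in Bahd1-KO, the highest being Bahd1-KO replicate 2, which had the lowest Drd1 of all samples.

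The other dopamine receptors were low. Drd4 (chr7:141292006-141296464, plus strand), a D2-like receptor, was counted 17, 8 and 6 times in the wild-type samples and 12, 52 and 16 times in the knockouts, 31 against 80 in all. Scaled to library size, the Bahd1-KO to Bahd1-WT ratio of these sums was 2.97 (95% exact interval 1.94 to 4.66, counting error only), and the groups did not overlap in CPM. Drd4 had a log2 fold change of 1.47 (SE 0.45, edgeR adjusted p = 0.0764) and 0.33 (SE 0.38) with the offset. Drd3, the D2-like receptor of the ventral striatum, averaged 0.245 ± 0.0649 CPM against 0.312 ± 0.0486 CPM, and Drd5, the second D1-like receptor, averaged 4.14 ± 0.772 CPM against 5.02 ± 0.611 CPM (Bahd1-WT against Bahd1-KO, SD, n = 3 each). Neither had an unadjusted p under 0.05, and Drd5 shares 1531 exon bases with the gene Gm26560 on the opposite strand.

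The 14 serotonin receptor genes split in direction, with 5 above and 9 below 0 and a median log2 fold change of -0.23. Over all genes tested, 11172 were above and 12803 below 0. With the offset, 7 of the 14 were above and 7 below 0, with a median of -0.01. Htr6 (chr4:139061108-139075570, minus strand), which stimulates adenylyl cyclase, was at 0.514, 0.502 and 0.600 CPM in Bahd1-WT and 0.873, 2.72 and 1.11 CPM in Bahd1-KO. The groups did not overlap, and Bahd1-KO replicate 2 was again the highest. Its log2 fold change was 1.56 (SE 0.43, edgeR adjusted p = 0.0655), 0.88 without Bahd1-KO replicate 2, and -0.21 (SE 0.24) with the offset, so the direction of Htr6 turned.

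Htr2b (chr1:86099026-86111970, minus strand), a Gq-coupled receptor better known from heart and gut than from brain, was counted 9, 11 and 14 times in the wild-type samples and 1, 5 and 3 times in the knockouts. The ratio of the sums, 9 to 34 counts scaled to library size, was 0.305 (95% exact interval 0.129 to 0.649). All 3 Bahd1-KO samples were below all 3 Bahd1-WT samples in CPM. Htr2b had a log2 fold change of -1.74 (SE 0.55, edgeR adjusted p = 0.0815) and, at a transcript GC content of 44.7%, -1.40 (SE 0.58, unadjusted p = 0.0366, adjusted p = 0.211) with the offset. Htr2b shares 252 exon bases with Psmd1 on the opposite strand. The counting was stated to use strand, but with a setting that is not the usual one for this kit, so the reads of opposite-strand partners may not have been separated. Such overlaps also exist for Slc18a2 (111 exon bases), Htr1b (852) and Adrb3 (839).

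Htr3a, a subunit of the serotonin-gated ion channel found in interneurons, averaged 5.61 ± 0.398 CPM in Bahd1-WT and 7.29 ± 0.766 CPM in Bahd1-KO (SD, n = 3 each). The groups did not overlap, but the log2 fold change of 0.38 (SE 0.20) had an edgeR adjusted p of 0.213 and was -0.08 (SE 0.16) with the offset. Its partner subunit Htr3b was at the limit of detection, with 8 counts in Bahd1-WT and 11 in Bahd1-KO in all and a ratio of 1.58 (95% exact interval 0.581 to 4.54).

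The groups overlapped for every Gi-coupled serotonin receptor of the first class. Htr1a, the autoreceptor on raphe cell bodies and a postsynaptic receptor in hippocampus, averaged 23.1 ± 2.51 CPM in Bahd1-WT and 20.1 ± 4.38 CPM in Bahd1-KO, and Htr1b, the autoreceptor on terminals, 27.3 ± 0.696 and 24.4 ± 4.76 CPM (SD, n = 3 each). Htr1d averaged 3.51 ± 0.231 and 3.68 ± 0.373 CPM. Their log2 fold changes were -0.20 (SE 0.21), -0.16 (SE 0.19) and 0.07 (SE 0.21). Htr1f, which shares this coupling, was at 3.80, 2.54 and 3.34 CPM in Bahd1-WT and 3.20, 1.66 and 1.62 CPM in Bahd1-KO, a log2 fold change of -0.59 (SE 0.32) that came to -0.09 (SE 0.23) with the offset. Htr5a and Htr5b, a related pair, had log2 fold changes of -0.26 (SE 0.17) and 0.69 (SE 0.30) with transcript GC contents of 45.5% and 55.0%, and 0.04 and -0.07 with the offset.

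The Gq-coupled Htr2a, the cortical target of hallucinogens, was at 36.4, 46.1 and 49.3 CPM in Bahd1-WT and 50.6, 26.7 and 30.9 CPM in Bahd1-KO, and its close relative Htr2c at 111, 145 and 114 CPM against 116, 70.0 and 106 CPM. For both, the Bahd1-KO replicate 1 value was within or above the Bahd1-WT range and the Bahd1-KO replicate 2 value was the lowest of all. Htr2c had a log2 fold change of -0.34 (SE 0.22), and 0.14 (SE 0.10) with the offset, and it is abundant in the choroid plexus, of whose 10 markers 3 had a log2 fold change above 0 and 7 below. That of Htr2a was -0.28 (SE 0.26), and 0.20 (SE 0.14) with the offset. Htr4 and Htr7, which stimulate adenylyl cyclase as Htr6 does, had log2 fold changes of -0.26 (SE 0.22) and -0.25 (SE 0.20), and with the offset 0.06 and -0.24. None of these 4 genes had an unadjusted p under 0.05 in the fit without the offset.

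The largest log2 fold change of all members in the fit without the offset was that of an adrenergic receptor gene, whereas with the offset it was that of Htr2b. Adra1d, which encodes the alpha-1D receptor, was at 0.896, 0.696 and 0.968 CPM in Bahd1-WT and 1.98, 8.73 and 2.97 CPM in Bahd1-KO. All 3 Bahd1-KO samples lay above all 3 Bahd1-WT samples, but the 3 Bahd1-KO values ranged widely. The log2 fold change was 2.42 (SE 0.53, edgeR adjusted p = 0.0634), a fold of 5.36, and 1.54 without Bahd1-KO replicate 2. With the offset it was 0.41 (SE 0.19, unadjusted p = 0.0516). Adra1d shares 147 exon bases with the gene Gm14285 on the opposite strand.

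Adra1b (chr11:43774606-43901210, minus strand), the alpha-1B receptor that acts through Gq, was at 6.32, 6.12 and 7.21 CPM in Bahd1-WT and 9.13, 18.9 and 11.1 CPM in Bahd1-KO. The groups did not overlap. Its log2 fold change was 1.00 (SE 0.29, edgeR adjusted p = 0.0682) and 0.35 (SE 0.15, unadjusted p = 0.0456, adjusted p = 0.237) with the offset, positive in both, and 0.63 without Bahd1-KO replicate 2. The third alpha-1 gene, Adra1a, averaged 8.36 ± 1.74 CPM in Bahd1-WT and 8.08 ± 1.97 CPM in Bahd1-KO (SD, n = 3 each), a log2 fold change of -0.05 (SE 0.25).

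The alpha-2 receptors, Gi-coupled autoreceptors of noradrenaline neurons and receptors on their targets, had log2 fold changes of opposite sign in the 2 fits. Adra2c was at 7.13, 6.77 and 6.59 CPM in Bahd1-WT and 8.37, 17.8 and 8.62 CPM in Bahd1-KO, and Adra2a at 15.1, 16.3 and 17.0 CPM against 19.2, 22.3 and 19.1 CPM. Neither pair of groups overlapped. In Adra2c it was 0.77 (SE 0.31, edgeR unadjusted p = 0.035, adjusted p = 0.131), 0.31 without Bahd1-KO replicate 2, and, with the offset, -0.97 (SE 0.25, unadjusted p = 0.00278, adjusted p = 0.0842). For Adra2a the values were 0.32 (SE 0.17, adjusted p = 0.215) and -0.76 (SE 0.26, unadjusted p = 0.0140, adjusted p = 0.139). The beta receptor genes were also of opposite sign: Adrb1, the main beta receptor of cortex, had 0.24 (SE 0.25) and -0.95 (SE 0.23, edgeR unadjusted p = 0.00209, adjusted p = 0.0816), and Adrb3 had 0.16 (SE 0.31) and -0.59 (SE 0.32). The GC content of Adra2c, at 65.5%, lay above the median of 59.7% of the 1325 most GC-rich genes that entered the bins. Those of Adra1d (65.4%), Fev (63.2%) and Htr6 (63.1%) did too, whereas Adra2a (58.6%) and Adrb1 (58.8%) lay below that median.

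**Figure D3:**
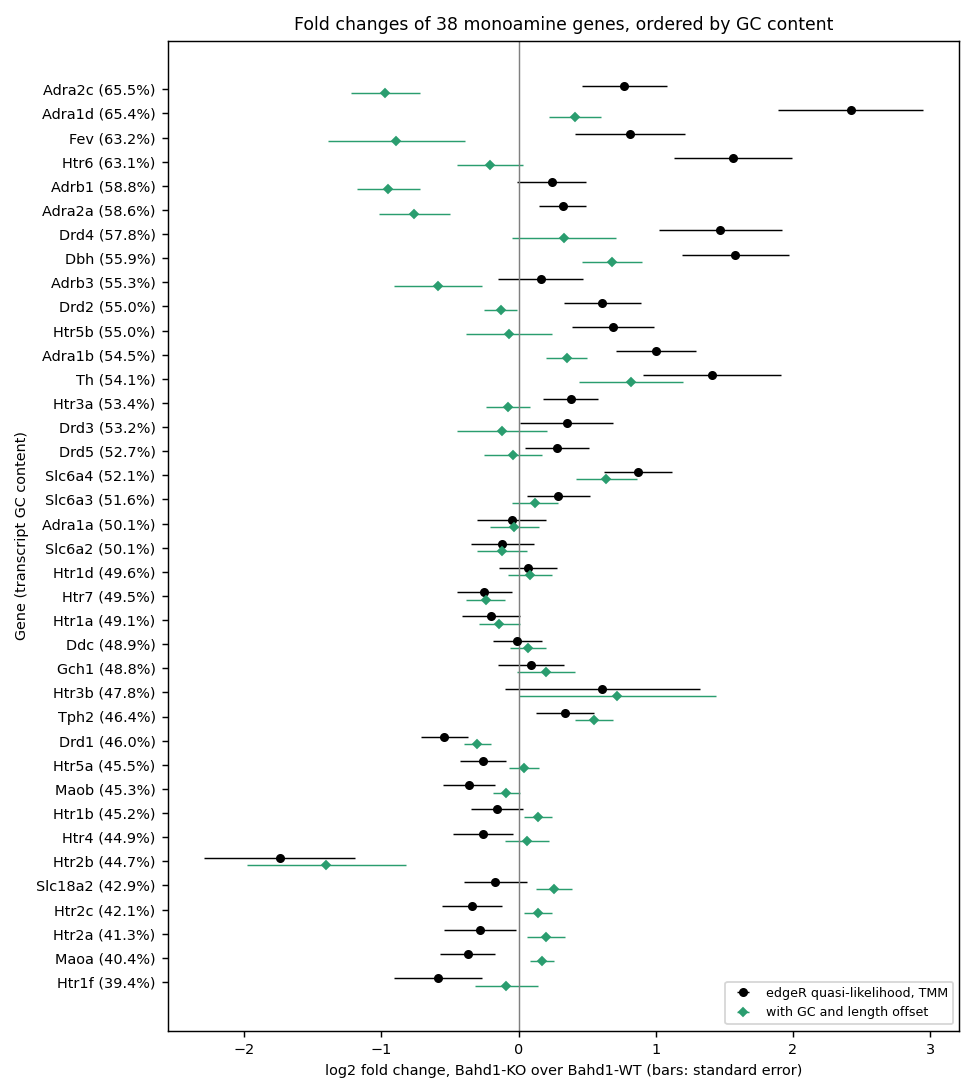
log2 fold change (Bahd1-KO over Bahd1-WT, x axis) with its standard error for each of the 38 members (y axis, ordered by transcript GC content), from the edgeR fit (black circles) and from the fit with the GC and length offset (green diamonds). Slc6a4, Dbh, Th, Tph2 and Adra1b stay above 0 and Drd1 and Htr2b below 0 in both, whereas Htr6, Fev, Adra2a, Adra2c and Adrb1 pass from above to below 0.

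Across the 38 members, the fold change followed base composition as it did over all genes. The Spearman correlation of log2 fold change with transcript GC content was 0.84 over the 38 members and 0.76 over all genes tested, given as descriptions since genes of a library share its composition. Of 18 members below 50% GC, 14 had a log2 fold change below 0 and 4 above, with a median of -0.26, and of 20 members at or above 50% GC, 2 were below and 18 above, with a median of 0.65. After the offset the correlation was -0.22, the median 0.00, and 19 members were above and 19 below 0. No member passed an adjusted p of 0.05 with the offset, where 6 of all genes did (0.0250%). At an unadjusted p under 0.05 with the offset there were 4 members above 0 (Tph2, Dbh, Slc6a4 and Adra1b) and 5 below (Drd1, Htr2b, Adra2a, Adra2c and Adrb1), 9 of 38 where 20.4% of all genes did.

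**Figure D4:**
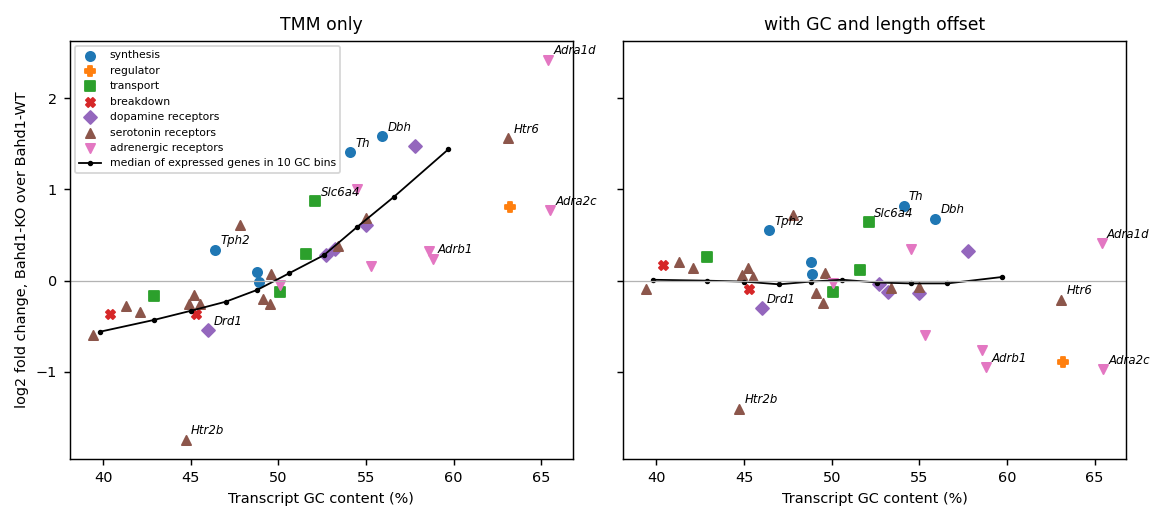
log2 fold change of each member (y axis) against the GC content of its transcript (x axis, %), without the offset on the left and with it on the right, with 1 symbol per role; the black line joins the medians of all genes above 1 on the log2 CPM scale, in 10 bins of GC content. On the left the line runs from -0.56 to 1.44, and members farther from it include Htr2b, Adra2a and Adrb1 below and Th and Dbh above. On the right the line lies near 0, with Th the highest member at 0.82 and Htr2b the lowest at -1.40.

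The hemispheres differed in this pattern, and the values of single samples depended on the reference level. The Spearman correlation between the level of a member, relative to its mean over the samples, and transcript GC content over the 38 members was -0.62, -0.73 and -0.65 in Bahd1-WT and -0.08, 0.90 and 0.57 in Bahd1-KO. With levels relative to the Bahd1-WT mean, it was 0.14, -0.24 and 0.12 in Bahd1-WT and 0.63, 0.88 and 0.77 in Bahd1-KO. All 3 Bahd1-KO values were then above 0. Bahd1-KO replicate 2 had the highest level of 17 members and the lowest of 13, and Bahd1-KO replicate 1 the highest of 5 and the lowest of 1. The 5 members highest in Bahd1-KO replicate 1 were Tph2, Drd5, Htr1b, Htr2a and Htr3a. RNA quality of single samples was not analysed here.

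**Figure D5:**
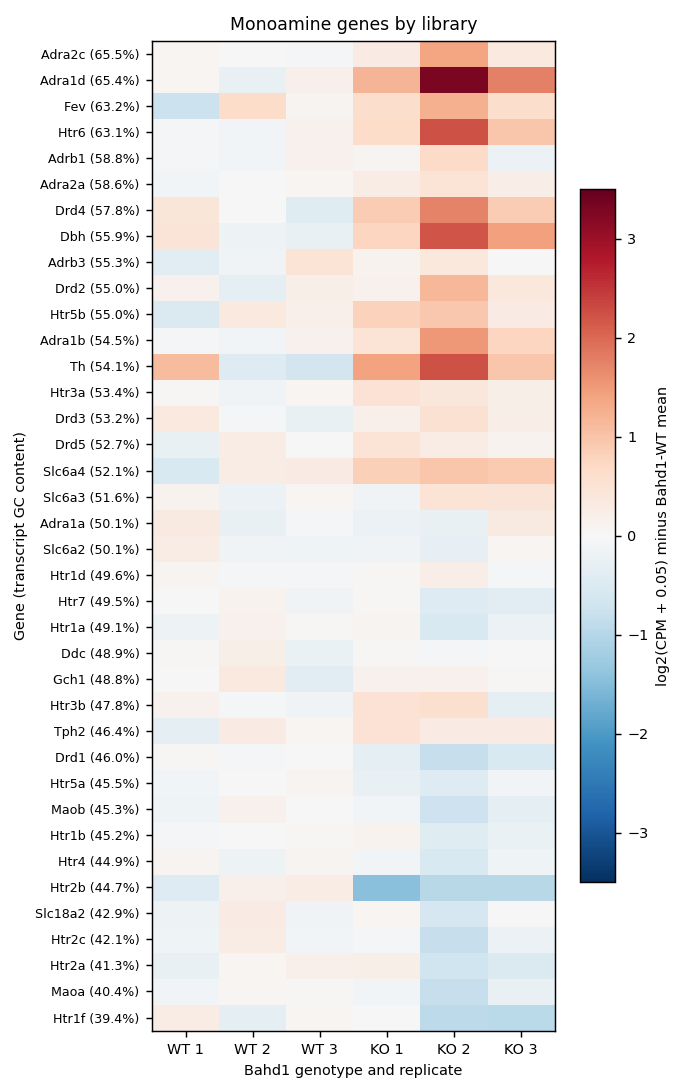
log2(CPM + 0.05) of each member minus its Bahd1-WT mean (colour) in the 6 hemispheres (x axis), with members ordered by transcript GC content (y axis, highest on top). The column of Bahd1-KO replicate 2 runs from red at the top to blue at the bottom, with Spearman 0.88 between the plotted values and GC content, against 0.63 in Bahd1-KO replicate 1 and 0.77 in Bahd1-KO replicate 3.

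The base composition of the promoters was a weaker guide than that of the transcripts. RefSeq promoter windows (250 bases before to 50 after the start, GRCm38.p6) were matched by symbol for 25 of 38 members. They had a median of 58.0% GC and 14 CG dinucleotides, against 52.7% and 7 over 32851 windows. Over these 25 members the Spearman correlation with log2 fold change was 0.17 for promoter GC content and 0.11 for the CG count, and 0.78 for transcript GC content. The 2 stretches below are the 150 bases before the RefSeq start of a CG-poor and a CG-rich member, shown with each CG in capitals, Htr2c (chrX:146962363-146962512, plus strand, 3 CG in the stretch) and Slc6a4 (chr11:76998447-76998596, plus strand, 12 CG).
Htr2c: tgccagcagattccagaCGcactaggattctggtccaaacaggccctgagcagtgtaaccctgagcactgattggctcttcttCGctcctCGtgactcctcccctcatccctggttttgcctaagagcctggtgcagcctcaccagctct
Slc6a4: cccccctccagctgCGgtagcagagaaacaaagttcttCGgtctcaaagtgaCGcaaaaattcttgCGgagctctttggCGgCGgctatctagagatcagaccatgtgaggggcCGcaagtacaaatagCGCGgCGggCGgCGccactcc
No binding or methylation was measured at these promoters here.

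In 8 pairs of members, the log2 ratio of one to the other was taken within each library, where scaling of the library plays no part. With 3 against 3 samples, the exact two-sided permutation test cannot give a p below 0.1, and none of the 8 could pass 0.05. The ratio of the noradrenaline transporter to the noradrenaline enzyme, Slc6a2 to Dbh, was 1.25, 1.50 and 1.56 on the log2 scale in Bahd1-WT and 0.56, -1.08 and 0.03 in Bahd1-KO, a difference of -1.60 without overlap (exact p = 0.1, adjusted over 8 pairs 0.267). With the offset it was -0.78. Slc6a4 to Tph2 was -1.80, -1.65 and -1.40 against -1.29, -0.91 and -0.97, a difference of 0.56 without overlap (exact p = 0.1, adjusted 0.267), and 0.12 with the offset. Drd1 to Drd2 was 1.04, 1.39 and 0.96 against 0.66, -0.84 and 0.21, a difference of -1.12 without overlap (exact p = 0.1, adjusted 0.267), and -0.17 with the offset. Slc6a3 to Th differed by -1.27 with overlap (exact p = 0.2, adjusted 0.4), from -0.36, 0.86 and 1.31 in Bahd1-WT to -0.93, -1.14 and 0.06 in Bahd1-KO, and by -0.89 with the offset. The other 4 pairs had differences of -0.02 (Maoa to Maob), 0.11 (Htr1a to Htr2a), -0.35 (Adra2a to Adra2c) and -0.18 (Slc18a2 to Ddc), all with overlap and an exact p of 0.3 to 0.5. With the offset the signs of these 4 were reversed, at 0.27 (exact p = 0.1), -0.35 (exact p = 0.2), 0.20 (exact p = 0.1) and 0.19 (exact p = 0.2), unadjusted.

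Per kilobase of exon, the order of the members in Bahd1-WT ran from Maob, Maoa, Htr2c (13.2 CPM per kb) and Drd1 (12.4) at the top, through Drd2 (8.18), Htr2a (7.83), Htr7 (6.48) and Tph2 (5.98), to Htr2b (0.0731), Drd4 (0.0392) and Htr3b (0.0143) at the bottom. The ranges of Maob and Maoa, of Maoa and Htr2c, and of Drd1 and Drd2 did not overlap, whereas Htr2c and Drd1, and most neighbours further down from Drd2 to Slc18a2, did. Th was at 2.42 ± 1.75 CPM per kb (SD, n = 3), Slc6a3 at 2.15 and Slc6a4 at 1.26 CPM per kb, and Slc6a2 at 0.554, Dbh at 0.485, Gch1 at 0.514 and Fev at 0.382.

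Of the rest of the pathway, 109 genes of 6 lists were tested, and none passed an adjusted p of 0.05 with edgeR. At an unadjusted p under 0.05, 39 were higher (19.9% of all genes) and 4 lower (2867 of all 23975 genes), and with DESeq2 and its prior 28 were higher (14.3% of all genes) and 0 lower (2.89%) at an adjusted p under 0.05. With the offset, 15 of the 109 were higher and 14 lower at an unadjusted p under 0.05 (2283 and 2598 of all 23975 genes). Of 10 genes of cofactor and related synthesis steps, 2 were higher at an edgeR adjusted p under 0.1 (14.7% of all genes) and 0 lower (4.77%). Their median log2 fold change was 0.35. The most abundant of them, Qdpr and Pts, which regenerate and make tetrahydrobiopterin, had 0.35 (SE 0.17) and -0.25 (SE 0.20), and with the offset -0.05 and 0.12. Of 14 genes of breakdown and low-affinity uptake, 4 were higher and 0 lower (median 0.30), with 0.45 (SE 0.19) for Akr1a1 and -0.33 (SE 0.15) for Aldh1a1, which reduce and oxidise aldehydes, and with the offset -0.09 and -0.08. Of 16 transcription factors of aminergic neurons, 2 were higher and 0 lower (median 0.45), with -0.02 (SE 0.21) for Nr4a2 and 0.50 (SE 0.27) for En2, both known from midbrain development, and with the offset 0.11 and -0.38. Of 5 other amine receptors, 2 were higher and 0 lower, among them Hrh3, the histamine autoreceptor, at 1.46 (SE 0.41, edgeR adjusted p = 0.0673) and -0.17 with the offset, while Hrh2 was at 0.02 (SE 0.17) and 0.08 with the offset. Of 49 genes of G protein and cyclic AMP signalling, 13 were higher and 0 lower (median 0.28). At an unadjusted p under 0.05, 16 of the 49 were higher and 2 lower (4760 and 2867 of all 23975 genes). With the offset 3 were higher and 8 lower (2283 and 2598 of all 23975 genes). The most abundant included Gnas, the stimulatory G protein, at 0.62 (SE 0.18, edgeR adjusted p = 0.0698) and -0.38 with the offset and Prkar1a, a protein kinase A subunit, at -0.14 (SE 0.17) and 0.12 with the offset. Of 15 partners of receptors and release, 6 were higher and 0 lower (median 0.41), with -0.17 (SE 0.19) for Snap25, a protein of vesicle release, and 0.25 with the offset. The counts of these 6 lists without a stated threshold are at an edgeR adjusted p under 0.1 (14.7% of all genes higher and 4.77% lower). With the offset the medians of the 6 lists lay between -0.11 and 0.15.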

How the data were processed

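RNA-seq counts per gene of 6 adult brain hemispheres (3 Bahd1-KO, 3 Bahd1-WT) were used, grouped by the titles and genotype labels. The titles give a replicate number, and the paper gives 3 mice per genotype, so that p-values measure the spread between these animals. The paper also states that the libraries were sequenced in 3 technical replicates. Per the labels, the authors trimmed reads with cutadapt 1.11, aligned them to GRCm38 with STAR 2.5.0a (the supplementary methods also name Tophat2) and counted them with featureCounts 1.4.6-p3, stated to use strand. The authors deposited unnormalized whole-number counts in 1 table, with 0 columns of other samples. Genes whose counts summed to 10 or more were tested with edgeR 4.0.16 (quasi-likelihood, TMM, genotype only, R 4.3.3), with Benjamini-Hochberg adjustment over 23975 genes. DESeq2 1.42.0 was an alternative. The offset was a spline fit per library of log2 counts on GC content (5 degrees of freedom) and log length (3), over 13250 genes above 1 on the log2 CPM scale, from GENCODE M21 (23940 of 23975 genes matched). Ratios within libraries had 0.5 added to each count. A floor of 3 counts corresponded to 0.0315 to 0.069 CPM, and intervals cover counting error only. The fits were tested on simulated data. The named genes were all members, Bahd1 and the 2 most abundant genes of each pathway list, of which an item is not reported here. Marker genes were named only beside a member. The members and lists were chosen with earlier results of these data known. Other normalizations, tests, filters, a replicate block and the removal of each sample were tried. The embryonic samples were not analysed here.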

Additional observations from a re-analysis of the deposited data

How the results depend on the processing

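The number of members at an adjusted p under 0.05 was 0 in the edgeR quasi-likelihood fit and also with DESeq2's size factors, upper-quartile factors, robust shrinkage, filterByExpr, a filter on CPM above 1, the replicate block and the offset. It was 5 with total counts, 6 with DESeq2's Wald test with or without the normal prior, 8 with edgeR's likelihood-ratio test and 7 with a filter of a sum of at least 1, and 0 to 10 over the removal of each sample (10 without Bahd1-KO replicate 1). Over all genes the number went from 2 to 2253 with total counts, 4115 and 4114 with DESeq2 with and without the prior, 4087 with the likelihood-ratio test, 3611 with the sum filter and 7113 without Bahd1-KO replicate 1. Dbh, Slc6a4, Htr6, Adra1b and Adra1d were among the calls under each of these settings that made any. At an adjusted p under 0.1 the number was 8, and 0 with the replicate block, 3 with the offset, 0 with offset and block, and 0 to 16 over the removal of each sample (16 without Bahd1-KO replicate 1, 4 without Bahd1-KO replicate 2 and 0 without any other). At an unadjusted p under 0.05 it was 10, and 7 to 17 over the removal of each sample (17 without Bahd1-KO replicate 1). The median log2 fold change of 0.20 became 0.04 with upper-quartile factors, which lower the median of all genes by 0.14, 0.09 with the CPM filter, 0.00 with the offset, 0.00 with offset and block, and 0.07 to 0.24 over the removal of each sample (0.07 without Bahd1-KO replicate 2).

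Of the 38 members, 19 had the opposite sign with the offset, and the cause was not tested beyond the offset's own construction. Their log2 fold changes with the offset, and then with the offset and the replicate block, were 0.07 and 0.08 for Ddc, -0.89 and -0.82 for Fev, 0.26 and 0.27 for Slc18a2, 0.17 and 0.17 for Maoa, -0.13 and -0.13 for Drd2, -0.12 and -0.09 for Drd3, -0.04 and -0.03 for Drd5, 0.14 and 0.14 for Htr1b, 0.20 and 0.20 for Htr2a, 0.14 and 0.15 for Htr2c, -0.08 and -0.09 for Htr3a, 0.06 and 0.07 for Htr4, 0.04 and 0.04 for Htr5a, -0.07 and -0.05 for Htr5b, -0.21 and -0.21 for Htr6, -0.76 and -0.81 for Adra2a, -0.97 and -1.01 for Adra2c, -0.95 and -0.98 for Adrb1 and -0.59 and -0.55 for Adrb3. The other opposite signs were near 0: Ddc at 0.01 with DESeq2's size factors and its Wald test with or without the prior, Ddc at 0.06 and Adra1a at 0.02 with total counts, and Gch1 at -0.06 and Htr1d at -0.07 with upper-quartile factors. Over the removal of each sample the log2 fold change spanned -0.13 to 0.08 for Ddc, -0.08 to 0.28 for Gch1, -0.20 to 0.03 for Slc6a2, -0.28 to 0.01 for Slc18a2, -0.02 to 0.14 for Htr1d, -0.26 to 0.12 for Adra1a, -0.04 to 0.43 for Adrb1 and -0.04 to 0.46 for Adrb3. The replicate block took its pairs from the replicate numbers of the titles, although a Bahd1-KO and a Bahd1-WT sample with the same number are different animals. Correlations of the deviations of same-numbered samples were -0.646, -0.660 and -0.139, so the numbers did not pair the samples, and the block took the 8 members at an adjusted p under 0.1 to 0. With 3 samples per genotype, an exact test on 1 gene could not go below 0.1, and Htr2b, Drd4 and Htr3b rest on 19 to 111 counts in all.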
